A study of Mus musculus with 3 samples.

Results

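The apolipoprotein genes are those that encode the protein coat of plasma lipoproteins. The 10 genes Apoa1, Apoa2, Apoa4, Apoa5, Apob, Apoc1, Apoc2, Apoc3, Apoc4 and Apoe were looked up by annotation symbol, current name or synonym. Of these, 9 had a table row, with 1 probe each and a value on all 3 arrays, out of 16390 named genes in the table and 10179 with a value on all 3. Apoc4 had no row under any of its names and is not analysed here. The genes were chosen by name, but the split into Apoa4 and Apoc2, which stood high, and the others, which stood low, was chosen by the values of treated TMX-null liver. Those values are therefore given as a description.

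The study measured liver RNA of female C57BL/6 mice on 3 microarrays with 2 channels each. The groups were TMX-null (TMX-/-) liver 24 h after intraperitoneal LPS/GalN, TMX-null liver without treatment, and wild-type (WT) liver 24 h after LPS/GalN, each with 1 array and labelled with Cy3. Untreated WT liver, labelled with Cy5, was the reference on every array. LPS/GalN is 3 ng lipopolysaccharide with 10 mg D-galactosamine, a model of acute inflammatory liver injury in which galactosamine sensitises hepatocytes. TMX is a thioredoxin-related membrane protein of the endoplasmic reticulum, the compartment in which secreted proteins such as apolipoproteins fold. The sources used here give neither the age of the mice nor the deleted part of the gene, nor whether a channel held 1 mouse or a pool. No group has a replicate and no dyes were exchanged, so no difference below was tested and no p-value is given.

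Apolipoproteins carry triglyceride and cholesterol through plasma and steer the particles to enzymes and receptors. Hepatocytes make most of them. ApoB is the structural protein of very low density lipoprotein (VLDL) and of chylomicrons, while apoA-I and apoA-II build high density lipoprotein (HDL). The small exchangeable proteins control lipolysis: apoC-II activates lipoprotein lipase, apoA-V favours its action and apoC-III opposes it. ApoE is the ligand by which remnants are taken up. ApoA-IV is made by the intestine and, in the mouse, also by the liver, where it is known to accompany fasting and lipid loading.

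The values are log2 ratios of the authors' table, centred on each array over the 10179 genes, and a log2 ratio of 1 is a 2-fold difference. The sources used here state neither the base of the logarithm nor the numerator. Sample over reference is the likely direction, since Tmx1, the targeted gene, stood at -3.88 and -2.96 in treated and untreated TMX-null liver and at 0.59 in treated WT liver. Were the numerator the other channel, all signs given here would be reversed. The only error at hand is the SD of a single probe over 80 genes with 2 complete probes, which was 0.77 for treated TMX-null, 0.42 for untreated TMX-null and 0.42 for treated WT liver. It leaves out differences between mice. Over the 10179 genes the ratios had an SD of 1.04 in treated TMX-null, 0.40 in untreated TMX-null and 0.48 in treated WT liver. All 3 pairs of arrays correlated positively across genes. That unequal spread matters for the differences between arrays described further on. In untreated TMX-null and treated WT liver the SD of a single probe was about as large as the SD over all genes. A ratio within it is not resolved from 0, which does not show that the gene was unchanged.

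The mouse apolipoprotein genes lie in 2 clusters and at 2 single sites. Apoa1, Apoc3, Apoa4 and Apoa5 lie in that order on chromosome 9, Apoc2, Apoc4, Apoc1 and Apoe on chromosome 7, Apob on chromosome 12 and Apoa2 on chromosome 1. RefSeq (GRCm38.p6) promoter windows were at hand for 8 of the 10 genes, with Apoc1 and Apoc3 missing. The 250 bases upstream of the start site are shown for the genes on which the contrast turns: Apoa4 with its low neighbour Apoa1, Apoc2 with its low neighbour Apoe, and Apoa2, the lowest of all. Where a gene had several windows the first listed was taken. Capitals mark matches on either strand to the motifs named after the sequences.
Apoa4, chr9:46240594-46240843, plus strand: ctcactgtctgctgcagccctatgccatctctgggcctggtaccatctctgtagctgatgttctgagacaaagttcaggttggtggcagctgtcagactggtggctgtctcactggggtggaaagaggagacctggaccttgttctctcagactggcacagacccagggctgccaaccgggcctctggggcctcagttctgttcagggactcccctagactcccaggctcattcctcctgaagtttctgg
Apoa1, chr9:46228380-46228629, plus strand: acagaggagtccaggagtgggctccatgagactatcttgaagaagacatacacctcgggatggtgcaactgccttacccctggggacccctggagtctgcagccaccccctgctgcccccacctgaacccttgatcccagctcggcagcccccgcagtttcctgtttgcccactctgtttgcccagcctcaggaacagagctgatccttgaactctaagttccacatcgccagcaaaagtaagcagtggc
Apoc2, chr7:19677942-19678191, minus strand: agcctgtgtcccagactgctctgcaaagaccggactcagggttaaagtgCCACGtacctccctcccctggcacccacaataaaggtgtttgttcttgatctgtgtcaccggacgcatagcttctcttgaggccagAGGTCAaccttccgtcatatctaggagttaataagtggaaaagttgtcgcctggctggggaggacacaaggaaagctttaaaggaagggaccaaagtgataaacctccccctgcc
Apoe, chr7:19699189-19699438, minus strand: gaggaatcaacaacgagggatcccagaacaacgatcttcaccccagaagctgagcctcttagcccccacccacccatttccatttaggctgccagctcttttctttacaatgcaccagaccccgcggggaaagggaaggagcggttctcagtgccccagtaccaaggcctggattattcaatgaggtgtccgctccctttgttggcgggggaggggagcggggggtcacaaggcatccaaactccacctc
Apoa2, chr1:171224804-171225053, plus strand: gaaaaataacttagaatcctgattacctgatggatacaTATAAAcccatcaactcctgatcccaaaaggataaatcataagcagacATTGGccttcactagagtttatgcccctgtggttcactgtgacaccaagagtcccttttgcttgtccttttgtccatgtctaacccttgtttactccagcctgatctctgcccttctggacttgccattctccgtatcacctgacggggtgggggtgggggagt

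The motifs searched were the nuclear receptor hexamer AGGTCA, the HNF4 core CAAAGTCCA, the DR1 repeat of the hexamer, the cyclic AMP element TGACGTCA, the CCACG core of endoplasmic reticulum stress elements, the CCAAT box and the TATA box TATAAA. They overlap where DR1 contains the hexamer. Of 32851 promoter windows of this length, 14.0% held AGGTCA, 0.384% CAAAGTCCA, 0.0335% DR1, 1.55% TGACGTCA, 28.3% CCACG, 33.8% CCAAT and 12.4% TATAAA. Apoc2 held 1 AGGTCA and 1 CCACG, and Apoa2 held 1 TATAAA and 1 CCAAT on the opposite strand. The windows shown for Apoa4, Apoa1 and Apoe held none of these letter strings. Among further windows of these genes, the second of Apoe held TATAAA on both strands, and the second of Apoa2 held AGGTCA and CCAAT on the opposite strand. No match says only that the letters are not in these 250 bases.

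In treated TMX-null liver, set against untreated WT liver, Apoa4 and Apoc2 stood high and 7 of the 9 measured apolipoproteins lay below 0. Apoa4 stood at 2.40, which is 5.28-fold higher, and Apoc2 at 1.41, or 2.65-fold higher. Apoa2 was the lowest at -3.09 (8.49-fold lower), followed by Apoe at -2.02 (4.06-fold lower), Apoc1 at -1.76 (3.39-fold) and Apoc3 at -1.47 (2.78-fold). At 2-fold, 2 of 9 were higher, against 13.6% of all genes, and 4 of 9 were lower, against 13.2% of all genes. Since these values chose the split, nothing is read from those shares. Just outside the 2-fold limit were Apoa5 at -0.92 and Apoa1 at -0.84, and Apob stood near 0 at -0.14. The median of the 9 genes was -0.92.

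**Figure D1:**
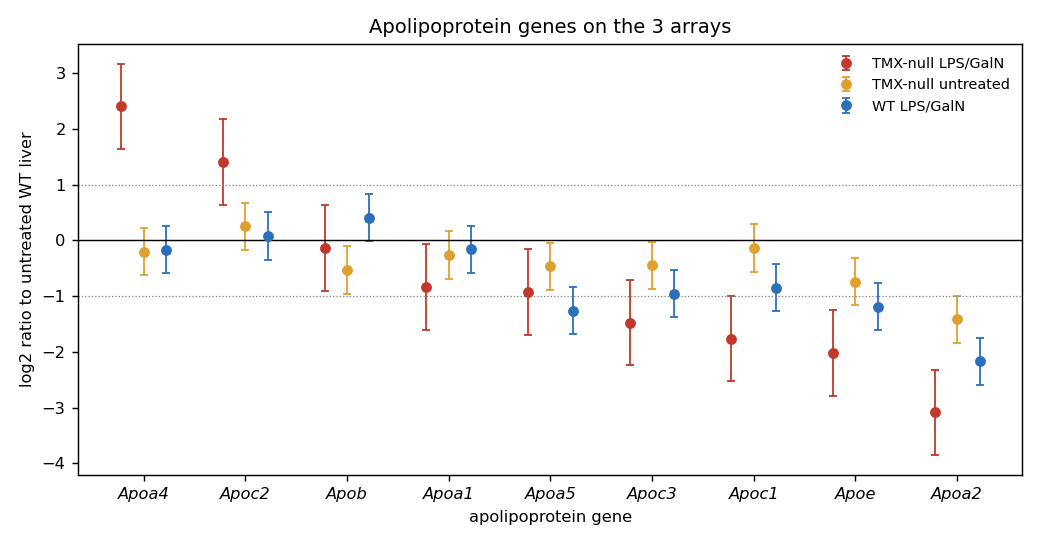
Log2 ratio to untreated WT liver (vertical axis) of the 9 measured apolipoprotein genes on the arrays of treated TMX-null, untreated TMX-null and treated WT liver. Points are single values, bars are the SD of a single probe and dotted lines mark 2-fold. Apoa4 and Apoc2 stand above 1 only in treated TMX-null liver, the array that chose them, at 2.40 and 1.41, while Apoa2 lies below -1 on all 3 arrays.

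The rule of the split names treated TMX-null liver and not the other 2 arrays, although earlier results of these data were known when members were chosen. Apoa4 stood at -0.20 in untreated TMX-null liver and at -0.17 in treated WT liver, both within the SD of a single probe of 0. Apoc2 stood at 0.25 and 0.08 there, also within it, so the direction of neither gene is resolved on these arrays. Both genes were chosen for high values on the array that combined the deletion with the treatment, which also had the widest spread. Lower values on the other arrays are to be expected from that choice, so no joint effect of deletion and treatment is read from them. In treated TMX-null liver Apoa4 lay beyond 2 SD of a single probe (SD 0.77), whereas Apoc2 was among the 5 of 9 genes within 2 SD of 0. Of the 10179 genes, 176 stood above Apoa4 in treated TMX-null liver, and Apoa4 was at the 28.1 and 33.6 percentile of all genes on the other 2 arrays. Apoc2 was at the 92.8 percentile in treated TMX-null liver, and at 76.0 and 57.7 on these arrays.

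The HDL proteins differed from each other in size of ratio. ApoA-II, encoded by Apoa2, had ratios of -3.09 in treated TMX-null, -1.42 in untreated TMX-null and -2.17 in treated WT liver. It was low on every array, with 68, 10 and 11 of the 10179 genes below it. An effect of the dyes, or of the reference RNA if it was shared, on this probe would give the same sign everywhere. Such an effect cannot be told apart from the groups on single arrays. Apoa1, the gene of the main HDL protein and activator of lecithin-cholesterol acyltransferase, stood at -0.84, -0.26 and -0.16. Its ratio in treated TMX-null liver exceeded the SD of a single probe (0.77) narrowly, and both other ratios were inside it.

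Among the regulators of lipolysis the genes stood apart from each other. Apoc2, the lipase activator, was high in treated TMX-null liver and near 0 on both other arrays, as described. Apoc3, the lipase inhibitor, stood at -1.47 in treated TMX-null, -0.45 in untreated TMX-null and -0.96 in treated WT liver. Apoa5, which favours lipolysis, stood at -0.92, -0.47 and -1.26. Its difference of 0.34 between treated TMX-null and treated WT liver was within the SD of a single probe for that difference (0.59). Apoc1, which hampers lipolysis and remnant uptake, stood at -1.76, -0.14 and -0.85. Of these 4 genes, 3 were thus lower after LPS/GalN in both genotypes than in untreated WT liver, by more than the SD of a single probe.

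Apob and Apoe, the main structural and receptor-binding proteins of VLDL and its remnants, also differed. Apob stood at -0.14 in treated TMX-null, -0.53 in untreated TMX-null and 0.41 in treated WT liver, so its ratio was inside the SD of a single probe on both treated arrays. Apoe stood at -2.02, -0.74 and -1.19, and its ratio was beyond the SD on all 3. Apoe is made by hepatocytes and macrophages, and 10 of 14 measured macrophage markers were at least 2-fold higher in treated TMX-null liver, against 13.6% of all genes, with a median of 1.37 and a range of -0.45 (Mrc1) to 4.10 (Marco). Of the same 14 markers 10 were also 2-fold higher in treated WT liver, and their median was 0.79 in untreated TMX-null and 1.19 in treated WT liver. Apoe thus lay low where macrophage markers lay high. Their part in the result was not tested.

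In untreated TMX-null liver 8 of the 9 apolipoproteins lay below 0, with a median of -0.45. Apoa2 was 2-fold lower, that is 1 of 9 against 0.835% of all genes, and none was 2-fold higher, against 1.78% of all genes. In treated WT liver 7 of 9 lay below 0, with a median of -0.85, and only Apob and Apoc2 lay above it. There 3 of 9 were 2-fold lower (Apoa2, Apoa5 and Apoe), against 1.75% of all genes, and none was higher, against 2.80%. Apoc3 at -0.96 was just outside the limit. Both arrays have untreated WT liver as reference. If it was the same preparation, low values on both are not independent of each other.

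The order of the ratios was not resolved for most neighbours. For 2 single probes the SD of a difference was 1.09 log2 in treated TMX-null liver. Of the 8 gaps between neighbours in the order Apoa4, Apoc2, Apob, Apoa1, Apoa5, Apoc3, Apoc1, Apoe, Apoa2, the 1.55 between Apoc2 and Apob alone was larger. That gap is the border of the split that these same values chose, so nothing is read from it. In untreated TMX-null liver the gap of 0.68 between Apoe and Apoa2 was the only one beyond the corresponding SD of 0.60. In treated WT liver 2 gaps were, namely 0.68 between Apoa4 and Apoc1 and 0.91 between Apoa5 and Apoa2.

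Treated against untreated TMX-null liver gives the response to LPS/GalN without TMX, and the reference cancels if it was the same preparation on both arrays. Apoa4 was 6.08-fold higher after treatment, at a difference of 2.60 (SD of a single probe 0.67), and 80 genes had a larger difference. Apoc2 was 2.23-fold higher, at 1.16, which was within 2 SD of a single probe. Apoa2 (-1.67), Apoc1 (-1.62), Apoe (-1.28) and Apoc3 (-1.02) were 2-fold lower, while Apoa1 (-0.57), Apoa5 (-0.46) and Apob (0.39) differed by less than the SD of a single probe. The counts were 2 of 9 higher, against 11.4% of all genes, and 4 of 9 lower, against 12.1%. This difference holds the values that chose the split, so nothing is read from these shares.

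The low and the high differences both depend on the spread of the arrays. With all arrays scaled to the same spread, no apolipoprotein was 2-fold lower in treated than in untreated TMX-null liver, and the differences were 0.35 for Apoa2, -0.87 for Apoc1, -0.07 for Apoe and -0.19 for Apoc3. The signs of Apoa2 and of Apoa5, at 0.17, turned under this scaling, and those of the other 7 genes did not. Apoa4 stood at 1.81, and Apoc2, at 0.47, was no longer 2-fold higher.

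**Figure D2:**
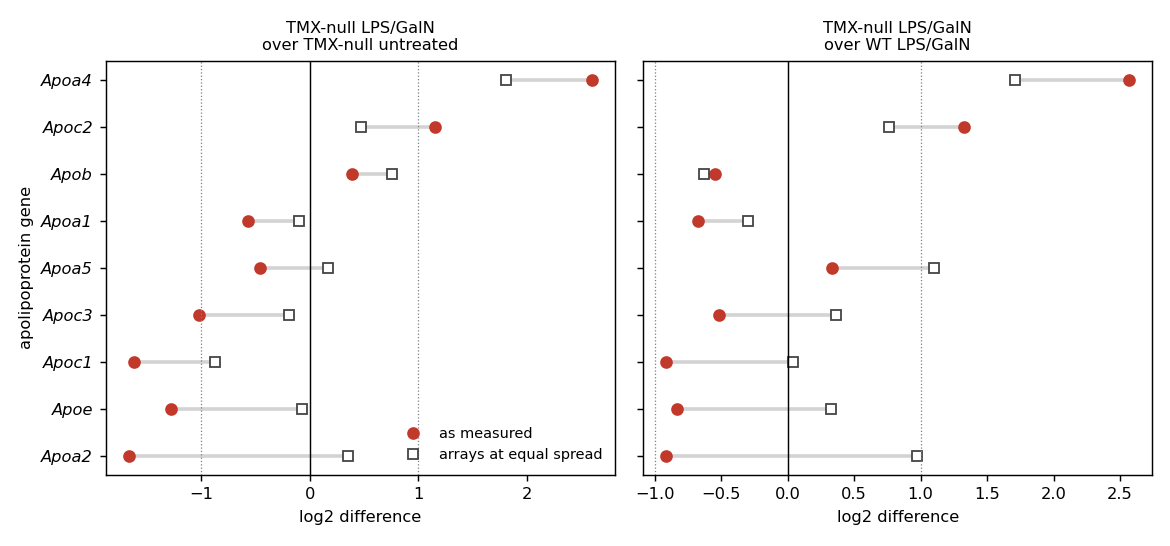
Log2 differences (horizontal axes) of the 9 apolipoprotein genes (vertical axis) between treated and untreated TMX-null liver (left) and between treated TMX-null and treated WT liver (right). Filled circles are the values as measured and open squares those with all arrays scaled to the same spread, with dotted lines at 2-fold. Apoa4 and Apoc2 stay above 0 in both, whereas Apoa2 lies at -1.67 as measured and 0.35 scaled on the left and at -0.92 as measured and 0.98 scaled on the right.

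Treated TMX-null against treated WT liver compares the genotypes under the same treatment. Apoa4 was 5.94-fold higher in TMX-null liver, at 2.57 (SD of a single probe 0.59), with 59 of the 10179 genes above it. Apoc2 was 2.51-fold higher, at 1.33. The 2 of 9 that were 2-fold higher compare with 9.64% of all genes, and none was 2-fold lower, against 10.6%. Here too the values that chose the split enter, and nothing is read from the shares. Apoa2 (-0.92), Apoc1 (-0.91), Apoe (-0.83), Apoa1 (-0.67), Apob (-0.55) and Apoc3 (-0.52) lay below 0 and Apoa5 above it at 0.34. With equal spread Apoa2 (0.98), Apoc1 (0.04), Apoc3 (0.36) and Apoe (0.33) lay above 0, so the direction of these 4 genes between the treated genotypes is not settled. Apoa4 stood at 1.71 and Apoc2 at 0.77 with that scaling.

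The response to LPS/GalN in TMX-null liver minus that in WT liver was 2.77 for Apoa4 and 1.08 for Apoc2. The SD of a single probe was 0.65, so Apoc2 lay within 2 SD of 0. For the other 7 genes this difference of responses lay between -0.78 (Apoc1) and 0.80 (Apoa5). The WT response is a single ratio to the reference. Any effect of the dyes or of the reference RNA on a probe therefore stays in the difference. Apoe, Apoc3 and Apob, at -0.09, -0.06 and -0.02, had almost the same response in both genotypes as measured. With equal spread they stood at 1.51, 1.08 and 0.21. The Apoa4 value was then 2.03 and that of Apoc2 0.37, while Apoa2 reached 3.23, above Apoa4, and Apoa5 1.84. Apoa1 (0.12) and Apoc1 (0.26) also lay above 0 under that scaling, so 5 of the 9 signs turned. As described, the scaling by itself raises this difference for a gene low on all 3 arrays.

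Within both clusters a gene chosen as high lies beside low ones in treated TMX-null liver. The values on that array chose the split, so nothing is read from this contrast. In the chromosome 9 cluster Apoa4 stood at 2.40 in treated TMX-null liver, against -1.47 for Apoc3 before it and -0.92 for Apoa5 after it. Apoa4 minus Apoa1 was 3.24 log2 there, 0.06 in untreated TMX-null and -0.01 in treated WT liver. Apoc2 is the end gene of the chromosome 7 cluster and stood 3.17 above Apoc1 and 3.43 above Apoe in treated TMX-null liver. RefSeq also lists a transcript that reads through Apoc4 and Apoc2. The place of the Apoc2 probe is not given in the sources used here, so this transcript and Apoc2 may not be separated.

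Of the genes flanking the chromosome 9 cluster with a value on all 3 arrays, Tagln, an actin-binding protein of smooth muscle type, stood at 2.98 and Cadm1, an adhesion molecule, at 1.02 in treated TMX-null liver. Pafah1b2 (0.75), Sidt2 (-0.26), Zpr1 (0.75) and Bud13 (0.05) were within 2-fold. Of those flanking the chromosome 7 cluster, Relb, an NF-kB subunit, stood at 1.45, and Clptm1, Clasrp, Tomm40, Nectin2 and Bcam lay between -0.45 and 0.05. Of these 12 flanking genes 3 were at least 2-fold higher and none was lower, against 13.6% and 13.2% of all genes, which is near the background over both directions.

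**Figure D3:**
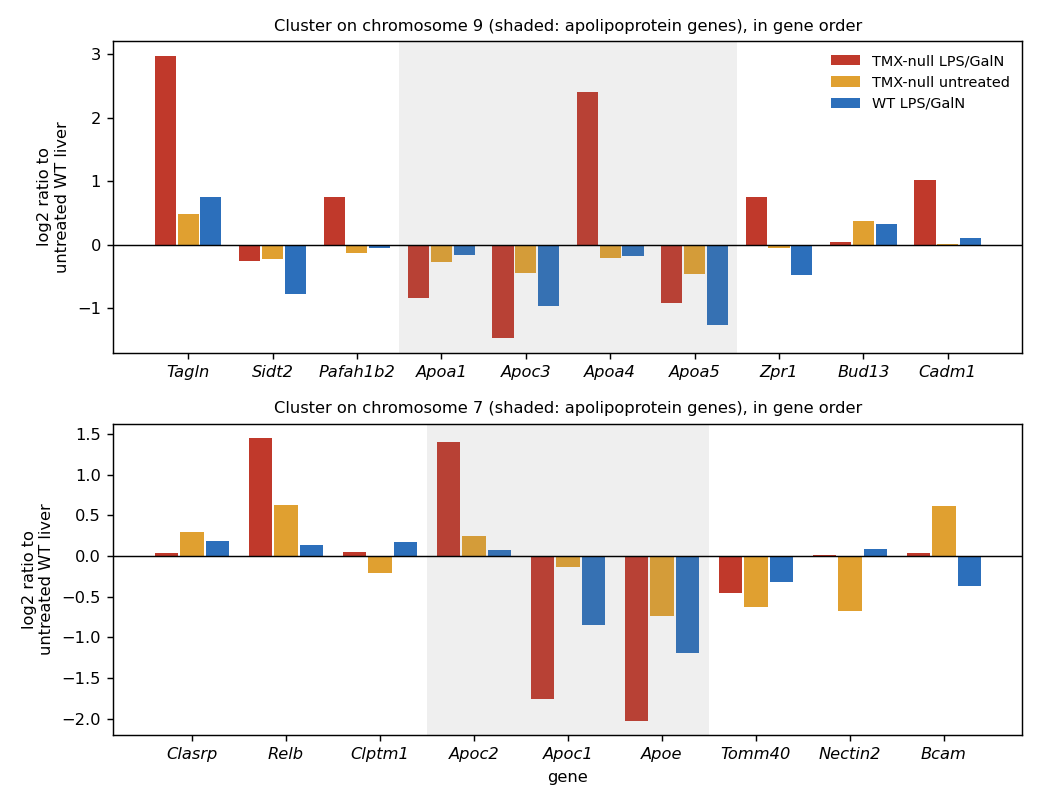
Log2 ratio to untreated WT liver (vertical axes) of the apolipoprotein genes (shaded) and of the 3 nearest measured genes on each side, in gene order. Bars are single values on the arrays of treated TMX-null, untreated TMX-null and treated WT liver. Apoa4 at 2.40, a value that chose the split, lies between Apoc3 at -1.47 and Apoa5 at -0.92 in treated TMX-null liver.

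Other plasma proteins of hepatocytes give the nearest comparison. In treated TMX-null liver 17 of 18 measured members of that list were at least 2-fold lower and none was higher, with a median of -1.68 and a range of -5.15 (Serpina6, corticosteroid-binding globulin) to -0.66 (Trf, transferrin). The shares over all genes were 13.2% lower and 13.6% higher. With arrays at equal spread 11 of the 18 were 2-fold lower, and the median was -1.04. Apoa4, Apoc2 and Apob lay above all 18, and Apoa1 and Apoa5 above 17 of them. The values of Apoa4 and Apoc2 on this array chose the split, so nothing is read from their place here. Apoc3 lay above 12, Apoc1 above 7, Apoe above 4 and Apoa2 above 1. Alb (albumin) stood at -1.84 and Ttr (transthyretin) at -2.35. In treated WT liver Apob and Apoc2 again lay above all 18, while Apoa4 lay above 15, Apoa5 above 3 and Apoa2 below all. In untreated TMX-null liver Apoc2 alone lay above all 18 and Apoa2 alone below all. On both of these arrays, each margin by which a gene lay beyond all 18 was below 0.60, the SD of a difference of 2 single probes.

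**Figure D4:**
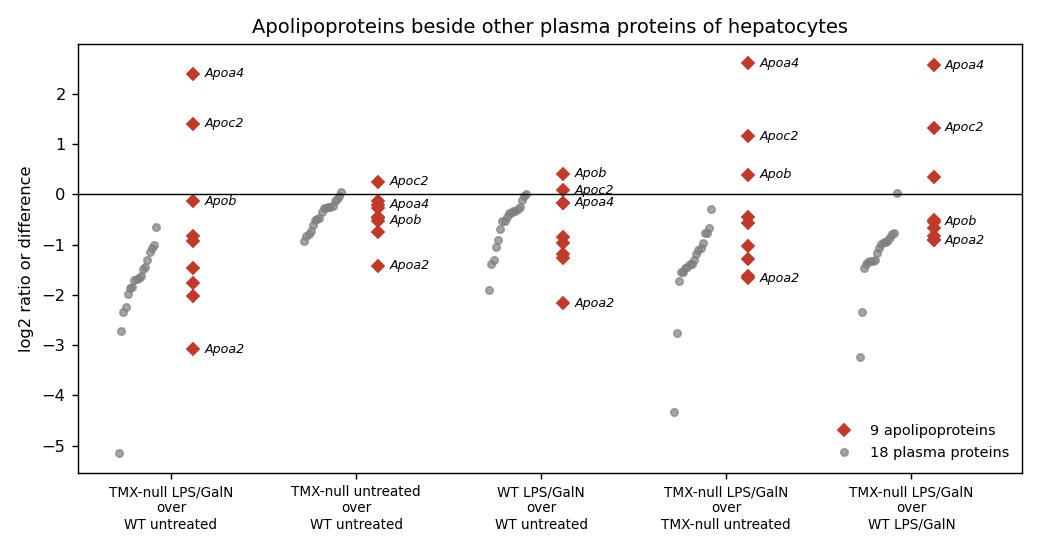
Log2 ratio or difference (vertical axis) of the 9 apolipoprotein genes (red diamonds) and of 18 other plasma proteins of hepatocytes (grey circles) in 5 comparisons (horizontal axis). Each point is a gene. In treated TMX-null liver over untreated WT liver the plasma proteins range from -5.15 to -0.66, with Apoa4, Apoc2 and Apob above them.

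Markers of hepatocytes, which share Alb and Ttr with the plasma protein list, moved with these values. Of 13 measured markers 12 were at least 2-fold lower in treated TMX-null liver, against 13.2% of all genes, with a median of -2.22 and a range of -4.47 (Cyp2e1) to -0.88 (Glul). The median was -0.25 in untreated TMX-null and -0.27 in treated WT liver. Fewer hepatocytes and less RNA per hepatocyte cannot be told apart in whole liver. Apoa4 and Apoc2 were thus high in a liver in which hepatocyte markers were low. Their values there chose the split, so nothing is read from this contrast. Since Apoa4 is also an intestinal gene, enterocyte markers were examined. Fabp2 (-0.49), Vil1 (-0.37) and Lct (0.28) were within 2-fold of the reference in treated TMX-null liver, while Cdh17 had a value on that array alone, at 4.18.

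Apolipoproteins outside the 10 genes lay low or near 0 in treated TMX-null liver. Of 11 measured, 4 were 2-fold lower and none higher, against 13.2% and 13.6% of all genes, with a median of -0.94. The lowest were Apol7a at -3.07, Apoh (beta-2-glycoprotein I) at -1.72, Apof at -1.57 and Apon at -1.47, while Clu (clusterin) was the highest at 0.41. On the other 2 arrays none of the 11 was past 2-fold, with medians of -0.15 in untreated TMX-null and -0.24 in treated WT liver. Among proteins that travel on HDL, Saa4 (-2.93), the antioxidant esterase gene Pon1 (-2.57), Lcat (-2.22), which esterifies HDL cholesterol, and Pltp (-1.03), which transfers phospholipid, were lower in treated TMX-null liver. They stood at -0.17, -0.48, -0.54 and -0.91 in untreated TMX-null liver and at 0.28, -0.92, -0.85 and -0.36 in treated WT liver. Pltp was thus about as low in TMX-null liver without treatment as with it. Saa3, an inducible serum amyloid A, was just past 2-fold higher in treated TMX-null liver and stood at 0.22 in untreated TMX-null and 4.22 in treated WT liver. Of the 8 measured genes of this HDL list 1 was thus higher and 4 were lower in treated TMX-null liver, against 13.6% and 13.2% of all genes, with a median of -0.89. The share of higher genes was near the background.

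Of 19 measured genes that load lipid onto apoB or store it, 3 were at least 2-fold higher and 5 lower in treated TMX-null liver, against 13.6% and 13.2% of all genes, with a median of -0.29. The share of higher genes was near the background. Higher were Plin2 (3.07), a coat protein of lipid droplets, Cidec (1.46), which promotes droplet fusion, and Soat1 (1.38), a cholesterol esterifying enzyme. In treated WT liver Plin2 stood at 0.00 and Cidec at 0.02, and Soat1 at 1.85. Lower were Cideb (-2.57), which aids VLDL lipidation, Soat2 (-1.94), Tm6sf2 (-1.55), Dgat2 (-1.26), an enzyme of triglyceride synthesis, and A1cf (-1.16), a cofactor of Apob mRNA editing. Mttp, the transfer protein that lipidates apoB, stood at 0.25, -0.02 and 0.29 in treated TMX-null, untreated TMX-null and treated WT liver, and so stayed as near to the reference as Apob. P4hb, its partner subunit and a protein disulfide isomerase, stood at -0.78, -0.08 and -0.33.

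The lipases and their regulators lay on both sides of 0 in treated TMX-null liver. Lpl, lipoprotein lipase, stood at 3.55 in treated TMX-null, 0.49 in untreated TMX-null and 1.56 in treated WT liver. Its activator Apoc2 was chosen for its high value in treated TMX-null liver, so nothing is read from both being highest there. In treated WT liver Apoc2 stood at 0.08. Macrophages express Lpl too, and their markers stood high as given above. Lipc, hepatic lipase, stood at -2.04, -0.09 and -0.67, and Angptl6 at -1.97, 0.00 and -0.28. Of the 7 measured genes of this list 1 was 2-fold higher and 2 were lower in treated TMX-null liver, against 13.6% and 13.2% of all genes. The share of higher genes was near the background, and the list is too short to read the share of lower genes. Among 8 measured genes of HDL maturation and cholesterol efflux, 1 was higher, the efflux transporter gene Abcg1 (1.69), and 5 were lower. These 5 were Abcg8 (-2.25) and Abcg5 (-1.29), which form the biliary sterol exporter, and Lcat, Pltp and Lipc, which also count in lists above. The background shares are the same as for the lipases, and the share of higher genes was again near the background. Abca1, which lipidates apoA-I, stood at -0.47.

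Of 14 measured receptors of lipoproteins and their regulators, 3 were at least 2-fold higher and 3 lower in treated TMX-null liver, against 13.6% and 13.2% of all genes, which is not far from the background. The scavenger receptor genes Msr1 (2.20) and Cd36 (1.92) and the sorting receptor gene Sorl1 (1.96) were higher. Sdc1 (-1.46), a heparan sulfate proteoglycan that binds remnants, Lrp6 (-1.37) and Vldlr (-1.25) were lower. Lrp1, the remnant receptor for apoE, stood at -0.83 and Scarb1, the HDL receptor, at -0.88. In treated WT liver Msr1 stood at 0.30, Cd36 at -0.19 and Sorl1 at 0.96. Macrophages also express these 3 genes, and macrophage markers were high on both treated arrays, with a median of 0.16 for treated TMX-null minus treated WT liver. Of 6 monocyte markers 3 were measured on all arrays, and their median for that difference was 2.18, with a range of 1.68 (Plac8) to 4.74 (S100a4). The part of either cell type in these values was not tested.

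Among transcription factors known to act on apolipoprotein genes, 1 of 27 measured was 2-fold higher and 6 were lower in treated TMX-null liver, against 13.6% and 13.2% of all genes, with a median of -0.38. Hnf4a, the nuclear receptor that drives most apolipoprotein genes in hepatocytes, stood at -0.28, 0.04 and -0.04 in treated TMX-null, untreated TMX-null and treated WT liver. Creb3l3, known in the mouse to activate Apoa4, Apoc2 and Apoa5, stood at 0.12, -0.28 and -0.24. Neither was past the SD of a single probe on any array. Srebf1 (-2.43), Cebpa (-1.89), Mlxipl (-1.81), Rxra (-1.56), Nr0b2 (-1.29) and Nr5a2 (-1.07) were lower, and Foxa3 (1.08) was higher, as it was in untreated TMX-null (1.02) and treated WT liver (1.25). Ppara, the fasting receptor, stood at 0.03, 1.09 and 0.59.

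Fasting genes and targets of PPARA or CREB3L3 had a median of 0.65 in treated TMX-null liver, with 5 of 12 measured 2-fold higher and 1 lower, against 13.6% and 13.2% of all genes. The higher ones were Igfbp1 (3.15), Plin2, Ehhadh (2.08), a peroxisomal enzyme of fatty acid oxidation, Pdk4 (1.93), which restrains glucose oxidation, and Cidec. Plin2 and Cidec are also counted above among the genes that load or store lipid. Pck1, of gluconeogenesis, was lower at -1.50. Igfbp1 was high on the other arrays too, at 1.14 in untreated TMX-null and 1.84 in treated WT liver. Ehhadh stood at 0.39 and -0.62 there, Pdk4 at -0.54 and -0.45, and the list had medians of 0.33 and -0.20. Fgf21, another target of both factors, stood at 0.16 in treated TMX-null and 0.09 in treated WT liver and was higher, near 2-fold, in untreated TMX-null liver.

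**Figure D5:**
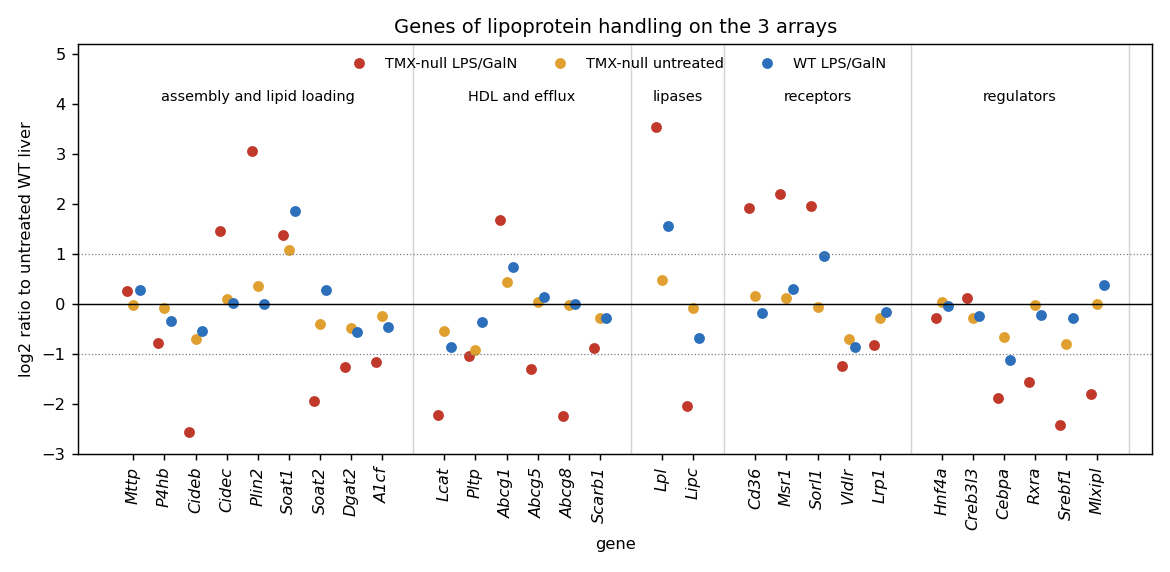
Log2 ratio to untreated WT liver (vertical axis) of genes of lipoprotein handling and of transcription factors (horizontal axis, grouped by role). Points are single values on the arrays of treated TMX-null, untreated TMX-null and treated WT liver, and dotted lines mark 2-fold. Lpl at 3.55 and Plin2 at 3.07 are the highest of those shown and Cideb at -2.57 the lowest in treated TMX-null liver.

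The genes nearest to 3 apolipoproteins in their ratios on the 3 arrays were found by Euclidean distance. Nearest to Apoa4 were Cd93 (distance 0.09), Cmpk2 (0.12) and Mthfd2 (0.17), and nearest to Apoc2 were Tsr1 (0.08), Adamts1 (0.09) and Rrp15 (0.09). Apoa2 had no close match, with Fzd8 at 0.71 and Nnmt at 0.97, followed by Cyp17a1. With 3 points a gene, a small distance describes these arrays alone.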

How the data were processed

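Liver RNA of 3 groups was set against untreated wild-type liver on 3 arrays of 2 channels, per the labels. The values are the log ratios that the authors deposited, taken to be log2 ratios. The sources used here give no image analysis, background correction, normalization, log base or numerator, and no reason for the blank cells. Each deposited column has its median at about 0, so the arrays had been centred.

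Of 23473 rows, 16631 had 1 symbol in GEO's platform annotation, 0 had several and 6842 none. Symbols were updated through RefSeq synonyms (GRCm38.p6): 12622 were current, 3947 were renamed and 62 were kept. Probes of a gene were averaged, and each array was centred on its median over the 10179 genes with a value on all 3 arrays (-0.07, -0.03 and -0.05 for treated TMX-null, untreated TMX-null and treated wild-type liver). Counts at 2-fold are read against the share of all genes. With 1 array per group there was no test, and precision is limited by the number of arrays. Alternatives changed the centring, the spread, the threshold, the log base, the gene set, the probe rule and the symbols. The steps were checked on simulated data. The rule named the apolipoproteins, Tmx1, flanking and nearest genes, and of each list the highest and lowest member and, in lists of 25 or fewer, all past 2-fold in treated TMX-null liver. The text names fewer of the marker, plasma protein and housekeeping genes, and none of the lists of other cell types it does not discuss. Transcription factors and others beyond the rule were added after their values were seen, for their known role. Members and lists were chosen with earlier results of these data known. Python 3.11.15, pandas 2.3.3 and numpy 2.4.6 were used.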

Additional observations from a re-analysis of the deposited data

Results flagged for a closer look

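Apoa4 met the criterion of responses to LPS/GalN of opposite sign in the 2 genotypes. Its log2 response was 2.60 in TMX-null liver and -0.17 in WT liver, a difference of 2.77. The WT response, a single ratio to the reference, lay within the SD of a single probe (0.42) of 0. Its sign is therefore not resolved. The TMX-null response holds the value that chose Apoa4. How many of all genes meet the criterion was not counted. With 1 array per group the difference was not tested. None of the other 8 measured genes among the 10 had responses of opposite sign as measured. With all arrays scaled to the same spread the difference was 2.03 for Apoa4 and 3.23 for Apoa2, whose scaled responses were 0.35 in TMX-null and -2.88 in WT liver, so the standing of Apoa4 among the apolipoproteins depends on the scaling.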

How the results depend on the processing

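No paired analysis was possible because each group has 1 array. The counts of apolipoproteins and of the 100 pathway genes past 2-fold stayed within 1.5 times under no further centring, under centring on housekeeping genes and with all genes that had a value on the arrays compared. The 12 housekeeping genes spread from -1.12 (B2m) to 2.39 (Tubb5) in treated TMX-null liver, with 3 at least 2-fold higher. Centring on them moved the median of all genes to 0.10 in treated TMX-null, 0.14 in untreated TMX-null and 0.06 in treated WT liver, and relative to that shift Apoc1 in untreated TMX-null liver was the 1 apolipoprotein ratio whose sign turned. It also raised the share of higher genes among those past 2-fold in untreated TMX-null liver to 86.3%, against 68.0% as reported, and equal spread lowered it to 56.6%. With all genes measured on the arrays compared, 563 genes were higher in untreated TMX-null and 840 in treated WT liver, against 181 and 285 among genes on all 3 arrays. The lower genes were 90 and 202, against 85 and 178, so the share of higher genes was 86.2% and 80.6%, against 68.0% and 61.6%, and the cause was not tested.

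With equal spread 1 apolipoprotein, in place of 2, was higher in treated TMX-null liver against untreated WT and against untreated TMX-null liver. Lower were 2 in untreated TMX-null, 5 in treated WT and 0 in treated against untreated TMX-null liver, where Apoa2 reversed to 0.35. Of the pathway genes 13 were then lower in treated TMX-null liver, against 27. At 3-fold 1 apolipoprotein was higher in each of the 3 comparisons of treated TMX-null liver. Lower were 0 in untreated TMX-null, 1 in treated WT, and 2 in treated against untreated TMX-null liver, and 13 pathway genes. At 1.5-fold 2 were lower in untreated TMX-null, 5 in treated WT and 4 in treated TMX-null against treated WT liver, and 20 pathway genes were higher, against 13. Reading the logarithm as natural gave 2, 5 and 3 lower in those 3 comparisons. In treated TMX-null against treated WT liver equal spread kept 2 higher, Apoa4 and Apoa5 at 1.10, while Apoc2 at 0.77 was not among them. The probe rule could not move the 9 genes, which have 1 probe each. No signal over background was at hand, so dim probes cannot be told from bright ones.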

Other observations

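Several genes of lipoprotein handling had no value on 1 or more arrays and stand outside the counts. Apobr, a receptor for apoB of remnants on macrophages, stood at 2.79 in treated TMX-null and 0.74 in treated WT liver and was blank in untreated TMX-null liver. Lipg, endothelial lipase, was blank in treated TMX-null liver and stood at -0.20 in untreated TMX-null and -0.72 in treated WT liver. Angptl4, an inhibitor of lipoprotein lipase that fasting induces, had a value in treated WT liver alone, at -0.38. Olr1, a receptor for oxidised lipoprotein, stood at 0.37 in treated TMX-null and 0.30 in treated WT liver. The rule behind blank cells is not given, so a blank is neither a low nor a high level.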
